A study of Homo sapiens with 2 samples.

Results

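Transcripts of 8 genes that bring choline into the cell and build phosphatidylcholine were compared between untreated and antagonist-treated CHME3, a human line of immortalised cells that its labels name microglia. SLC44A1, SLC44A2, CHKA, CHKB, PCYT1A, CHPT1, CEPT1 and PEMT were selected by name for their step in the pathway. They are 8 of 26370 gene names in the deposited tables and hold 16 of 56891 transcripts. There were 2 libraries. One group was left untreated, and the other received muscarinic receptor antagonists at 5 µg/ml, given in the labels as an EC50. These drugs block muscarinic receptors, a class of the receptors on which acetylcholine, an ester of choline, acts. No label names the compound or says how long cells were exposed, and passages were 4 to 6 for both groups. With 1 library in each group there is no replicate check and no test of a condition, and every interval below covers counting error between these libraries alone.

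Phosphatidylcholine is the main phospholipid of most mammalian membranes. In the CDP-choline route, choline enters through transporters, is phosphorylated by choline kinase, is activated to CDP-choline, and is then joined to diacylglycerol by a phosphotransferase. A separate route, best known from liver, methylates phosphatidylethanolamine. Cholinergic neurons also use choline to make acetylcholine.

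In SLC44A2, CHKA and PEMT the tables list a pair of transcripts that each hold at least 5% of the gene in a library. The bases in which each pair differs are shown because the widest differences in estimated level within a gene lay between these transcripts. They were chosen after the values were seen and read from GENCODE release 29 (GRCh38, the build hg38). In CHKA, NM_212469 leaves out exon 3 of the 12 exons of NM_001277, a coding exon of 54 bases, or 18 codons, at chr11:68081404-68081457 on the minus strand.
CHKA exon 3: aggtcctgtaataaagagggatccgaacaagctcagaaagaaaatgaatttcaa
In PEMT, NM_001267551 leaves out the last 66 bases of the first exon of NM_148172, which are coding, make 22 codons and lie at chr17:17591531-17591596 on the minus strand. Capitals mark the GT at which its intron begins, the bases that open most introns.
PEMT end of exon 1: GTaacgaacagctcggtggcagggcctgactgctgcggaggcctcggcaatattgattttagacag
In SLC44A2, NM_001145056 starts 23050 bases upstream of NM_020428, and the other 21 exons are shared. Each first exon has its own start codon, in capitals, so the proteins begin differently. The coding parts lie at chr19:10602531-10602561 and chr19:10625634-10625670 on the plus strand.
SLC44A2 upstream first exon: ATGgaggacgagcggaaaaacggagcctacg
SLC44A2 downstream first exon: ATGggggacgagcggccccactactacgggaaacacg

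The 250 bases before each SLC44A2 start are shown because the estimated balance between both starts differed by 7.2 points of share between the libraries. They come from RefSeq's promoter table (GRCh38.p14), which held an entry for 7 of the 8 genes, and RefSeq's starts lie 10 and 58 bases downstream of those in the deposited tables. The upstream window is chr19:10602205-10602454 and the downstream window chr19:10625303-10625552, both on the plus strand. Capitals mark the GC box, searched as GGGCGG on both strands.
SLC44A2 upstream window: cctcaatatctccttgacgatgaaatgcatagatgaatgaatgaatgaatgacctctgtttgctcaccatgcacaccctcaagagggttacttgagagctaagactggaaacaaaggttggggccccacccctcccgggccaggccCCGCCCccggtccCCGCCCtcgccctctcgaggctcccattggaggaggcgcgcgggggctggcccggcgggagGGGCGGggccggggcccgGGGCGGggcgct
SLC44A2 downstream window: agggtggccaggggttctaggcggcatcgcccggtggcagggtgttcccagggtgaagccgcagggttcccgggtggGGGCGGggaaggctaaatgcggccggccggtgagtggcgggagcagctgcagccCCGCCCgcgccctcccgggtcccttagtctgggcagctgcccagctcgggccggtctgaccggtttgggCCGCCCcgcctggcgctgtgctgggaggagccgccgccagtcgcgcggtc
The GC box was found 4 times upstream and 3 times downstream, and 42.6% of 35116 promoter windows of this length hold it. CCAAT, searched on both strands, was found 1 time upstream and not in the downstream window, and 32.01% of all windows hold it. TATAAA, searched on both strands, was in neither window and in 10.7% of all. G and C made up 65.6% of the upstream and 75.2% of the downstream window, against a median of 58% over all windows. These matches describe letters and are not binding sites.

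FPKM, the unit of the tables, is the number of fragments normalised for transcript length and library size, so levels of genes can be compared. Depth was estimated at 6702760 fragments for untreated and 7295690 for treated cells. Of 15 microglia and macrophage markers, 12 were under 1 FPKM throughout, and 7, among them AIF1, TMEM119 and CX3CR1, were listed at 0 in each table. CD68, a lysosomal protein of macrophages, measured 15.7 and 12.6 FPKM, a ratio of 0.804 (0.633 to 0.986). The 10 fibroblast and mesenchymal markers summed to 5362 and 5761 FPKM, with 6 over a mean of 1 FPKM. Most of that sum came from the matrix gene FN1, at 2725 and 3021 FPKM, and from VIM, at 1967 and 2025. Of the collagens on that list, COL1A1 measured 499 and 545 FPKM, COL5A1 34.3 and 36.9, and COL1A2 0.196 and 0.157. COL3A1, LUM and DCN were listed at 0 in each table. All 6 neuron and 4 oligodendrocyte markers, and 4 of 5 astrocyte markers, were under 1 FPKM. The exception, the glutamate transporter SLC1A3, was at 3.97 and 5.25 FPKM. The part of these differences in the results was not tested, and in bulk RNA fewer cells of a type and less RNA per cell cannot be told apart.

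All 8 genes were above 5 FPKM in both libraries. Values are given as untreated and then treated. The order of levels was SLC44A2, CHPT1, PEMT, CEPT1, CHKB, PCYT1A, CHKA and SLC44A1, from high to low, in each library. By 95% Poisson intervals, SLC44A2 stood above CHPT1, and PEMT above CEPT1, in each library. CHKB stood above PCYT1A in the untreated library, and their intervals overlapped in the treated one. The intervals of all other neighbours in the order overlapped, so those neighbours were not separated.

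**Figure D1:**
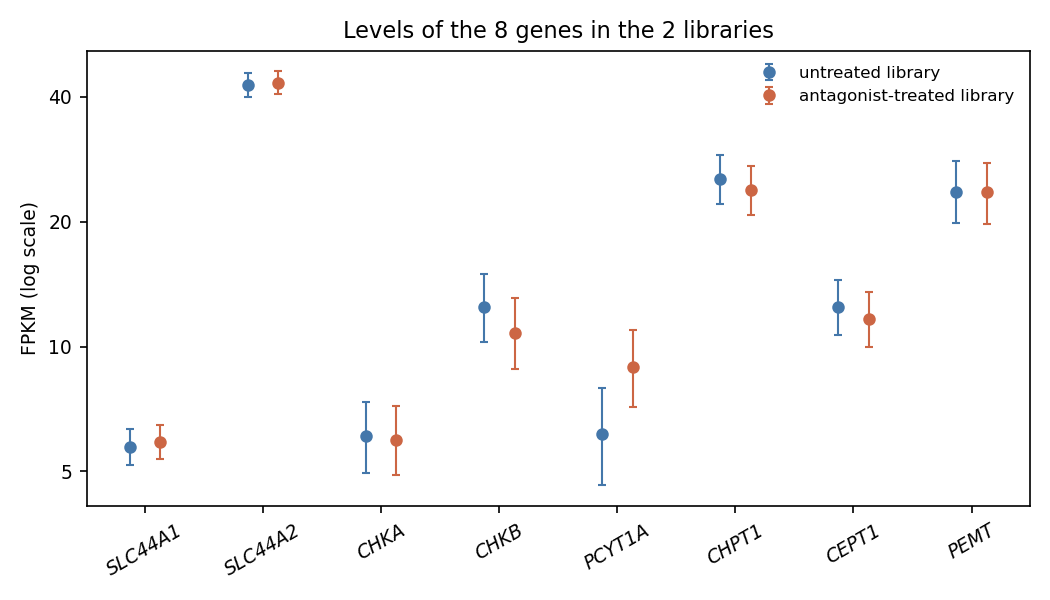
FPKM of the 8 genes (log scale) in the untreated (blue) and antagonist-treated (orange) library, with 95% exact Poisson intervals on estimated fragments. SLC44A2 is highest, at 42.7 and 43.3 FPKM, and PCYT1A has the widest gap in proportion, at 6.16 and 8.91.

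The choline transporters had ratios near 1. SLC44A1 (chr9:105244613-105397347, plus strand), a choline transporter of plasma and mitochondrial membranes, measured 5.72 and 5.9 FPKM. With 398 and 445 fragments, its ratio of treated over untreated was 1.03 (0.895 to 1.18), where brackets give the 95% exact conditional binomial interval. SLC44A2 (chr19:10602445-10644559, plus strand), a related transporter, measured 42.7 and 43.3 FPKM, above 84.2% and 84.7% of the 11668 genes whose mean reached 1 FPKM. It rested on 924 and 1009 fragments and had a ratio of 1.01 (0.917 to 1.1). SLC44A1 thus supplied a small share of the pair, 11.8% of the summed FPKM in the untreated library. The sum of the pair had a ratio of 1.02 (0.938 to 1.09).

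The tables divided SLC44A2 differently between its starts. The upstream transcript NM_001145056 was estimated at 33.5 and 37.1 FPKM, with the authors' bounds at 30.5 to 36.6 and 34.0 to 40.3. The downstream transcript NM_020428 was estimated at 9.13 and 6.14 FPKM, with bounds of 7.36 to 10.9 and 4.72 to 7.57. The upstream transcript held 78.6% of the gene's FPKM in untreated and 85.8% in treated cells. The bounds of each transcript overlapped between the libraries. Since 21 exons are shared, most fragments were divided by Cufflinks rather than observed for 1 transcript, so no counting interval is given for transcripts. Nearly all of SLC44A1 was 1 transcript, NM_080546, at 5.72 and 5.9 FPKM.

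**Figure D2:**
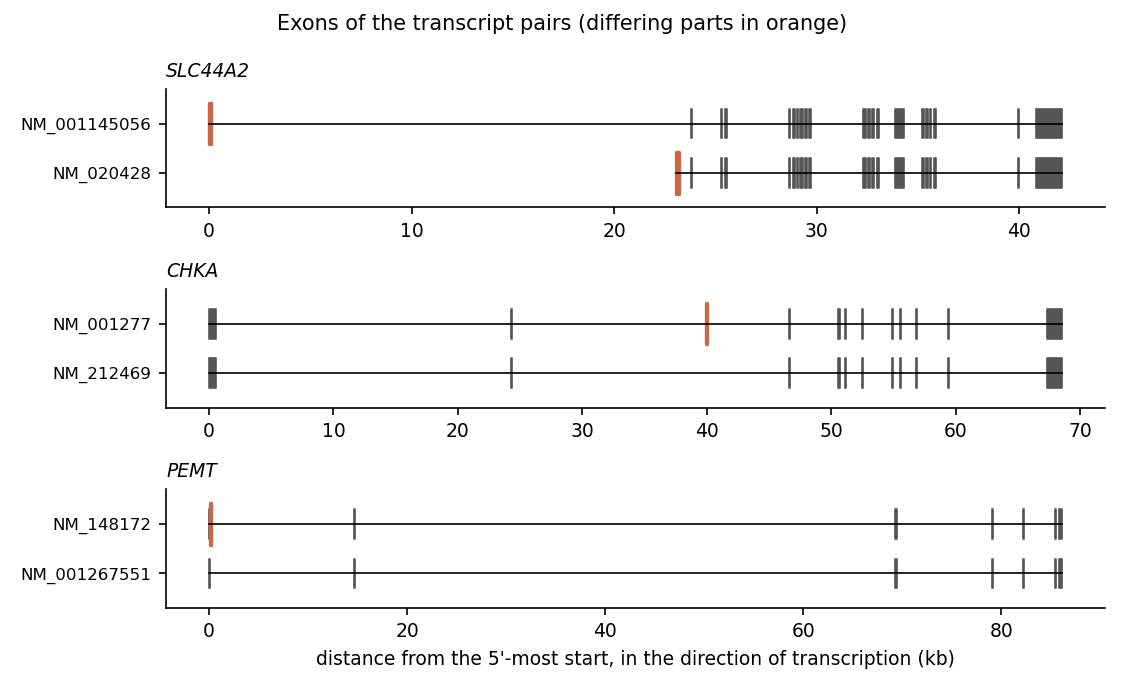
Exons (bars) and introns (lines) of the transcript pairs of SLC44A2, CHKA and PEMT, by distance from the start farthest upstream in kilobases, with the parts that differ in orange. The pair of SLC44A2 differs in the first exon, that of CHKA in exon 3, and that of PEMT in the last 66 bases of the first exon.

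Choline kinases add the phosphate that holds choline in the cell. CHKA (chr11:68052859-68121391, minus strand) measured 6.09 and 5.95 FPKM on 104 and 110 fragments, a ratio of 0.978 (0.736 to 1.28). CHKB (chr22:50578958-50582999, minus strand), whose loss causes a congenital muscular dystrophy, measured 12.4 and 10.8 FPKM on 114 and 102 fragments, a ratio of 0.869 (0.623 to 1.08). Neither interval excluded 1, and the sum of both kinases had a ratio of 0.905 (0.732 to 1.08), with CHKA at 32.9% and 35.6% of it. CHKB shares 1551 exon bases with the read-through record CHKB-CPT1B on the same strand, which was listed at 0 in untreated cells and at 0.375 FPKM, or 6 fragments, in treated cells. With that record added, CHKB had a ratio of 0.899 (0.663 to 1.14).

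The estimates for the transcripts of CHKA differed more than its total. NM_001277, with exon 3, was estimated at 6.09 and 5.09 FPKM. NM_212469, without it, measured 0.000795 FPKM in untreated cells, with an upper bound of 0.119, and 0.860 FPKM in treated cells, with bounds of 0.256 to 1.46. These bounds did not overlap. Only fragments that touch the 54 bases of exon 3 or span its removal tell the forms apart, and their number was not analysed here.

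PCYT1A, which makes CDP-choline and usually sets the pace of this route, showed the widest difference of the 8 genes. PCYT1A (chr3:196238382-196287713, minus strand) measured 6.16 and 8.91 FPKM on 56 and 89 fragments. Its ratio was 1.45 (1.03 to 2.08), and its log2 ratio was 0.47 with a pseudocount of 1 FPKM, a size exceeded by 3.8% of the 11668 genes. It was the only one of the 8 whose interval excluded 1, and it lay above 1. Over all genes 12.6% of intervals excluded 1, 4.95% above and 7.63% below, so 1 of 8 is a share near the background. The direction of these calls depended on the interval's scale, with 577 genes above and 890 below 1 at the depth ratio, and 750 above and 696 below with each gene's own fragments per FPKM. At a confidence level of 99% the interval was 0.933 to 2.32, and the authors' bounds overlapped, at 4.52 to 7.80 and 7.02 to 10.8 FPKM. The deposited coverage per base of PCYT1A, from the same reads and not scaled for depth, was 9.60 and 16.3, and scaled to FPKM in each library it gave a log2 ratio of 0.59. PCYT1B, its isoenzyme, had at most 0.00145 FPKM.

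**Figure D3:**
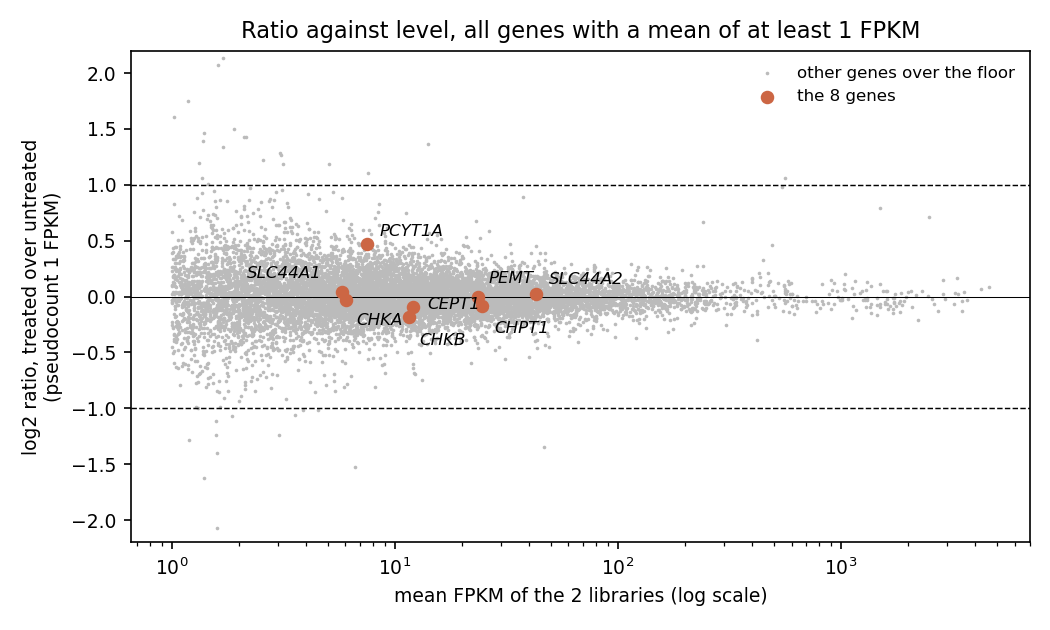
Log2 ratio of treated over untreated (pseudocount of 1 FPKM) against the mean FPKM of the libraries (log scale) for the 11668 genes whose mean reached 1 FPKM, with the 8 genes in orange and dashed lines at 2-fold. PCYT1A lies at 0.47 and the other 7 genes between -0.19 and 0.04, and 43 genes lie beyond the plotted range.

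Phosphotransferases complete the CDP-choline route, and both had ratios just under 1 with intervals that included it. CHPT1 (chr12:101697639-101729068, plus strand), a choline phosphotransferase of the Golgi, measured 25.3 and 23.9 FPKM on 212 and 215 fragments, a ratio of 0.944 (0.767 to 1.13). CEPT1 (chr1:111139627-111185102, plus strand), which uses CDP-choline and CDP-ethanolamine, measured 12.5 and 11.7 FPKM on 172 fragments in each library, a ratio of 0.935 (0.739 to 1.14). CHPT1 was 2.03 and 2.05 times as high as CEPT1, so their proportion was alike in both libraries. Their sum had a ratio of 0.941 (0.804 to 1.07). DRAM2 shares 6 exon bases with CEPT1 and SYCP3 shares 80 with CHPT1, each on the opposite strand. The labels do not say whether strand was kept, and no SYCP3 transcript was above 0.147 FPKM.

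PEMT makes phosphatidylcholine by methylation and had the ratio nearest 1. PEMT (chr17:17505563-17591703, minus strand) measured 23.6 and 23.5 FPKM on 136 and 140 fragments, a ratio of 0.996 (0.742 to 1.21). Beneath this total, NM_148172 was estimated at 23.6 and 19.2 FPKM. NM_001267551, without the end of the first exon, measured 9.11e-08 FPKM in untreated cells, with an upper bound of 0.386, and 4.35 FPKM in treated cells, with bounds of 1.86 to 6.84. These bounds did not overlap either, and here only fragments at the 66 bases or across their removal tell the forms apart. The other 3 PEMT transcripts had at most 0.000366 FPKM.

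Such differences between transcripts were common in these tables. CHKA and PEMT were 2 of the 5 genes with several transcripts in which a share differed by at least 10 points, and 37.9% of 6677 such genes did so. SLC44A2, at 7.2 points, fell short of that rule. CHKA and PEMT also had a transcript under 1% of the gene in untreated and at least 10% in treated cells. So did 10.7% of the 6677 genes, or 18% counting either direction. The authors' bounds did not overlap for 2 of the 13 transcripts of the 5 genes, against 15.2% of 25277 transcripts. Counts this small cannot be set apart from that background, and how Cufflinks divided fragments between transcripts was not tested.

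**Figure D4:**
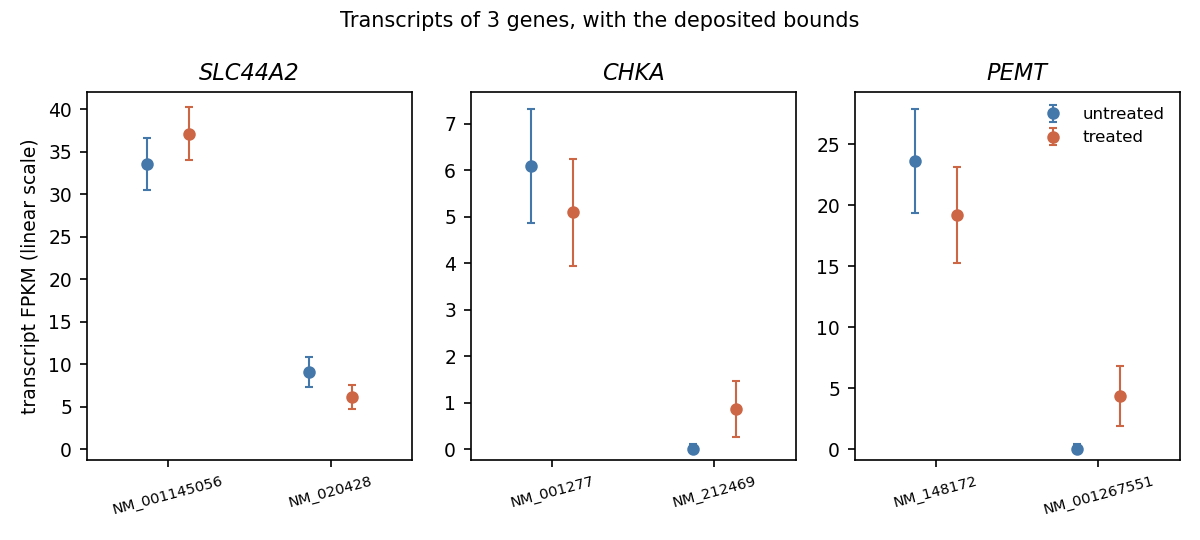
FPKM (linear scale) of the transcript pairs of SLC44A2, CHKA and PEMT in the untreated (blue) and treated (orange) library, with the authors' deposited lower and upper bounds. NM_212469 and NM_001267551 lie at or near 0 in the untreated library and at 0.860 and 4.35 FPKM in the treated one.

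By rules of size on the log2 ratio with a pseudocount of 1 FPKM, none of the 8 genes passed. 0 of 8 were at least 2-fold different, where 0.66% of the 11668 genes were, 0.351% higher and 0.309% lower. 0 of 8 were at least 1.5-fold different, where 2.23% were, 1.2% higher and 1.03% lower. SLC44A1, SLC44A2 and PCYT1A were higher in treated cells and the other 5 lower, and 50.7% of all genes were higher and 49.3% lower. The median log2 ratio was -0.02 over the 8 genes and 0.00 over all genes.

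The wider pathway was covered by 7 lists with 84 other genes, 55 of them over a mean of 1 FPKM. By the pseudocount measure 0 of the 55 reached 1.5-fold, where 2.23% of all 11668 genes did. Without a pseudocount, the FPKM ratios of PLA2G4A, SMPD2 and DGAT2 (lower) and PLA2G6 (higher) passed 1.5-fold. The share of all genes passing without a pseudocount was not computed, so these ratios have no background beside them. That share depends on the pseudocount, and with 0.1 FPKM it was 4.765% of the 11668 genes. The counting intervals of DGAT2 and PLA2G6 included 1. The median log2 ratio of the 55 was 0.01. Of them 31 were higher and 24 lower, where 50.7% of all genes were higher and 49.3% lower. Counting intervals lay below 1 for 2 of the 55, SMPD2 and PLA2G4A, where 7.63% of all 11668 genes did, and above 1 for none, where 4.95% did, so the lists give no result beyond the background. Of 11 other transport genes 3 were over the floor. FLVCR1, a choline transporter, measured 2.83 and 2.68 FPKM. MFSD2A, which imports lysophosphatidylcholine, measured 2.72 and 2.75. SPNS1, which carries lysophospholipids out of lysosomes, measured 24.9 and 24.6. The intervals of these 3 included 1, and SLC44A5, SLC22A2 and SLC22A3 were listed at 0 in each table.

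In the other CDP routes 7 of 9 genes were over the floor, 4 higher and 3 lower. PCYT2, which makes CDP-ethanolamine, measured 11.1 and 12.97 FPKM, a ratio of 1.17 (0.974 to 1.39). ETNK1, an ethanolamine kinase, measured 5.69 and 6.62. The phosphatidylserine synthases PTDSS2 and PTDSS1 had ratios of 0.872 (0.729 to 1.02) and 0.959 (0.847 to 1.05). None of these intervals excluded 1. In diacylglycerol and phosphatidate supply 12 of 14 genes were over the floor, 6 higher and 6 lower. DGAT2, which makes triglyceride, measured 2.26 and 1.44 FPKM on 35 and 24 fragments, a ratio of 0.638 (0.359 to 1.09). The phosphatidate phosphatase LPIN3 measured 3.59 and 2.9, the acyltransferase GPAT3 1.22 and 1.51, and AGPAT1, highest of the list, 63.6 and 63.6.

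Remodelling and transfer had all 10 genes over the floor, 7 higher and 3 lower, with a median log2 ratio of 0.05. STARD10, a phospholipid transfer protein, measured 14.7 and 17.6 FPKM, a ratio of 1.2 (0.97 to 1.46). LPCAT4, which adds a fatty acid to lysophospholipids, measured 28.99 and 32.3, STARD7, which carries phosphatidylcholine to mitochondria, 28.2 and 31.4, and MBOAT7 58.4 and 58.8. Turnover had 16 of 21 genes over the floor, 9 higher and 7 lower. SMPD2, a neutral sphingomyelinase, measured 4.03 and 2.37 FPKM on 39 and 24 fragments, a ratio of 0.589 (0.325 to 0.964). PLA2G4A, the cytosolic phospholipase that releases arachidonate, measured 1.66 and 0.855 on 31 and 17 fragments, a ratio of 0.515 (0.262 to 0.939). With 7.63% of all genes called below 1, these 2 of 16 are a description only. The phospholipase PLA2G6 had a ratio of 1.51 (0.771 to 2.98), and the sphingomyelinase SMPD4, highest of the list, 0.928 (0.86 to 1.01).

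Choline oxidation and methyl supply had 7 of 13 genes over the floor, 4 higher and 3 lower. AHCY, which clears the product of methylation, measured 264 and 259 FPKM, a ratio of 0.98 (0.923 to 1.01). ALDH7A1, which makes betaine, measured 27.3 and 29.1, the methionine synthase MTR 8.27 and 7.72, and SARDH 2.27 and 2.39. BHMT, which takes a methyl group from betaine, BHMT2, a related enzyme, and DMGDH, which oxidises dimethylglycine, were listed at 0 in each table, where 3 fragments of BHMT would be 0.191 and 0.178 FPKM. All 7 genes of acetylcholine handling were under 1 FPKM. CHAT, which makes acetylcholine, had 0.00367 FPKM in untreated cells and a listed value of 0 in treated cells. ACHE, which breaks it down, had 0.218 and 0.277 FPKM on 4 fragments each.

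**Figure D5:**
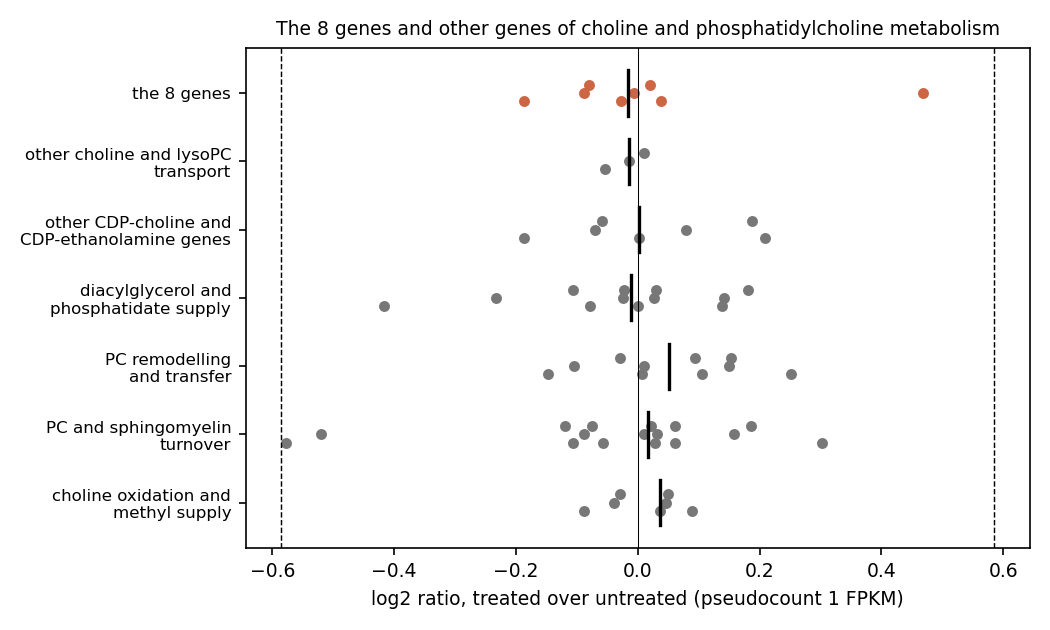
Log2 ratio of treated over untreated (pseudocount of 1 FPKM) for the 8 genes (orange) and for other genes over the floor in 6 lists (grey), with the median of each list as a black line and dashed lines at 1.5-fold. PCYT1A at 0.47 is the rightmost point of the 8 genes, and no list holds a gene beyond the dashed lines.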

How the data were processed

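TruSeq RNA libraries, 1 per treatment label, have a table of transcripts each. TopHat, Cuffdiff and hg38 are named, without versions, per the submitters' processing notes, and the tables' source column names Cufflinks. The authors deposited FPKM per RefSeq transcript with lower and upper bounds, coverage per base, and a score that was not used.

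FPKM was summed over a gene's transcripts. The log2 ratio used a pseudocount of 1 FPKM, which understates ratios of low genes, over genes whose mean was at least 1 FPKM. Fragments were recovered from the authors' bounds for genes with 1 transcript (21.1% and 21.3% of such values of at least 3 fragments were whole within 0.01, so these are estimates) and otherwise estimated from FPKM, length and depth. Ratios have 95% exact conditional binomial intervals on rounded fragments, scaled by the ratio of the estimated depths. Since fragments per FPKM of a gene can differ between libraries, the FPKM ratio lay outside this interval for 78 genes (0.669%), none of the 8. A scale from each gene's own fragments per FPKM was tried after seeing the data and is given as an alternative. No test was made, because each group has 1 library. The ratio, size rules and interval were run on simulated Poisson counts with the same depth ratio, which checks the calculation only. The simulation left out how fragments were estimated and divided between transcripts, so it does not show how well the intervals hold for these data.

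The 8 genes and the lists were chosen with earlier results of these data known, and the transcript share rules and motifs after values were seen. Named are the 8 genes, their transcripts of at least 5%, overlapping genes, and from each list the 3 widest ratios and the highest level. PCYT1B, CHAT, ACHE, markers and genes listed at 0 were named after their values were seen. SELENOI was matched as EPT1. Values of some list genes are not reported here. Alternatives were pseudocounts, floors, scalings, the most abundant transcript, fragments, interval rules and, added later, coverage. Python 3.11.15, pandas 2.3.3 and scipy 1.17.1 were used.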

Additional observations from a re-analysis of the deposited data

How the results depend on the processing

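Of 72 log2 ratios of the 8 genes under 9 alternative settings, 71 lay within the gene's counting interval. The exception was SLC44A2 at 0.14 with the most abundant transcript alone. Some of these values could not differ from the main ones. Settings that change only the floor leave the ratio of a gene as it was. The most abundant transcript alone leaves CHKB, PCYT1A and CHPT1, which have 1 transcript each, as they were. PCYT1A ranged from 0.32 with a pseudocount of 5 FPKM to 0.59 with the deposited coverage scaled to FPKM in each library. That coverage setting was chosen after seeing the data. With it 1 of 8 genes, PCYT1A, reached 1.5-fold, where 2.25% of 11611 genes did. CHKB, CHPT1 and CEPT1 were negative and SLC44A1 and SLC44A2 positive in all 9, while CHKA (-0.22 to 0.05) and PEMT (-0.29 to 0.03) took both signs. The median over the 8 genes ran from -0.08 to 0.03. The interval excluded 1 for 1 gene, for 0 at 99% and for 1 with depths taken as equal. By non-overlap of the authors' bounds, taken for the most abundant transcript of each gene, the count was 0. The share over all genes was not computed at 99%, with equal depths or by these bounds, so those counts have no background beside them. The interval excluded 1 for 1 gene with each gene's own scale, chosen after seeing the data, where 12.4% of all genes did. Over all genes that last scale turned the split of 577 above and 890 below 1 into 750 and 696. No paired analysis was possible because each group has 1 library, and no replicate could be left out. At 56 and 89 fragments, depth limits PCYT1A most.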
